A study of Drosophila melanogaster with 12 samples.

Results

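The vacuolar H+-ATPase (V-ATPase) subunit genes were described in Drosophila melanogaster S2 cells, an embryo-derived line with hemocyte-like properties. Members were the genes of the deposited count table whose symbol starts with Vha, 33 of 16718 genes. The 4 groups, of 3 libraries each, were untreated cells (control) and cells given double-stranded RNA (dsRNA) against BEAF-32, against row, or against both (BEAF-32 RNAi, row RNAi and double RNAi). BEAF-32 encodes a DNA-binding insulator protein, and row a zinc finger protein found together with the chromatin protein HP1c. Treated cells received 4 µg of dsRNA per ml, then 8 µg per ml after 2 days, and were collected after 2 more days. Control cells received no dsRNA, so no group carried dsRNA of unrelated sequence. All 12 libraries came from the 1 cell line, and nothing in the labels states whether the replicates of a group were grown apart. The p-values then reflect only how much these libraries vary, and that variation may be technical.

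The V-ATPase is a rotary proton pump of endosomes, lysosomes, Golgi and, in some epithelia, the plasma membrane. Its cytosolic V1 sector hydrolyses ATP (subunits A to H), and its membrane V0 sector carries protons (subunits a, c, c'', d and e). Cathepsins and other lysosomal enzymes depend on the acid it makes, and TORC1, the growth-regulating kinase complex, is recruited to lysosomes through the Rag GTPases in contact with it. In flies many subunits have several gene copies, some of them used in few tissues.

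Transcripts were counted from their polyadenylated ends (3' RNA-seq). Total counts ran from 2276507 to 3963412 per library, and 3 counts, taken as the limit of detection in a library, corresponded to 0.718 to 1.33 CPM (counts divided by the TMM-corrected library total and scaled to the usual per-million unit). Such floors and the intervals of shares below cover counting error only. All 14 hemocyte marker genes of the list were in the table. Act5C, the cytoplasmic actin gene that most cell types use, averaged 7606 CPM, and of the other 13 genes 12 had a mean of at least 1 CPM (summed level of the 13, 1882 to 2270.3 CPM per library). NimC1, a hemocyte surface receptor gene, had 14 counts in all. The 5 neuron markers summed to 24.8 to 44.0 CPM, mostly from Syt1 and elav, while the synaptic genes brp and nSyb had 12 and 19 counts over 12 libraries. Testis markers summed to 2.94 to 11.3 CPM, all from bam (207 counts over 12 libraries) and topi (79). Mst84Da, Mst87F, dj and Prosalpha4T1 had 0 counts. Muscle markers summed to at most 3.44 CPM and those of gut or Malpighian tubule to at most 1.33 CPM. Those of ovary summed to 1.73 to 8.40 CPM, mostly from osk (127 counts over 12 libraries). The RNAi targets were lower where they were targeted. BEAF-32 had a log2 change against control of -1.44 (SE 0.22, adjusted p = 1.78e-04) in BEAF-32 RNAi and -0.93 (SE 0.22, adjusted p = 0.0322) in double RNAi. The row gene had -0.95 (SE 0.22, adjusted p = 0.0379) in row RNAi and -0.71 (SE 0.22, adjusted p = 0.202) in double RNAi, so in double RNAi its decrease did not pass. All adjusted p-values come from the quasi-likelihood test of edgeR, with the Benjamini-Hochberg method applied over the 7377 tested genes, and 0.05 was the threshold.

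S2 cells expressed at least 1 gene of each of the 15 subunits, and 1 copy carried nearly all counts of each subunit except a. Of the 33 genes, 20 had a mean of at least 1 CPM over the 12 libraries, 3 had fewer counts, and 10 had 0 counts in every library. The 33 genes are assigned to 15 subunits, and each subunit had a leading gene with a mean of at least 83.0 CPM. These 15 leading genes were Vha68-2 (A), Vha55 (B), Vha44 (C), Vha36-1 (D), Vha26 (E), Vha14-1 (F), Vha13 (G) and VhaSFD (H) of V1, and Vha100-1 (a), Vha16-1 (c), VhaPPA1-1 (c''), VhaAC39-1 (d) and VhaM9.7-b (e) of V0. The accessory proteins were VhaAC45, the fly ATP6AP1, and VhaM8.9, the fly ATP6AP2 or prorenin receptor. All 15 passed the filter on low counts, as did Vha100-2, VhaM9.7-c and Vha68-1, which left 18 genes tested.

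**Figure D1:**
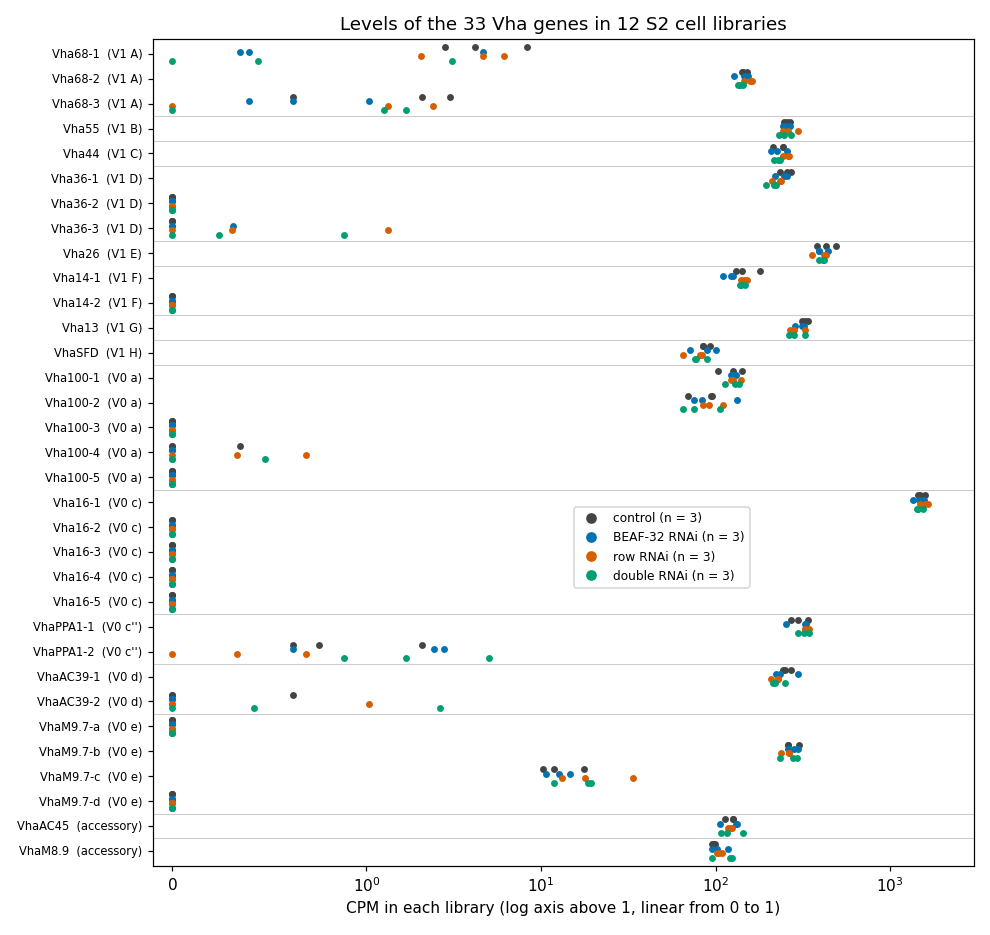
CPM of each of the 33 Vha genes (vertical axis, by subunit) in each of the 12 libraries (points, coloured by group, n = 3 each), on an axis that is logarithmic above 1 and linear from 0 to 1. The 15 leading genes lie at 65.4 to 1644 CPM in every library, and 10 genes lie at 0 in all of them.

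Vha16-1, on chromosome arm 2R, encodes the proteolipid of the c ring, the part of V0 that turns as protons pass and that holds many copies of this protein. It was the highest of the family in CPM. Its level was 1439.8, 1591 and 1482 CPM in untreated cells, 1343, 1554 and 1460.4 in BEAF-32 RNAi, 1574, 1644 and 1479 in row RNAi, and 1429.7, 1534 and 1444 in double RNAi. The groups overlapped. It ranked 108 among all genes by mean CPM. The other proteolipid-like copies, Vha16-2, Vha16-3, Vha16-4 and Vha16-5, had 0 counts in 12 libraries, which allows a level of up to 0.0849 CPM (3 counts over all libraries together).

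A count from a transcript end does not grow with transcript length, so genes are compared in CPM. CPM per kb of the longest annotated transcript (BDGP6.54) is given only beside it, since dividing such counts by length favours short transcripts. Per kb, Vha16-1 averaged 502.5 and was followed by Vha13 (321.3), VhaPPA1-1 (232.3) and VhaM9.7-b (220.6). In CPM it was followed by Vha26, with 433 ± 52.7 in control (SD, n = 3), Vha13 (326 ± 12.1) and VhaPPA1-1 (302 ± 34.6). Vha26 and Vha13 form the peripheral stalks that hold V1 in place, and VhaPPA1-1 is the c'' proteolipid, which sits in the ring with c. In control the libraries of Vha16-1 and Vha26, and of Vha26 and Vha13, did not overlap. Between Vha13 and Vha44 in this order each gene overlapped the next: VhaPPA1-1, VhaM9.7-b (273 ± 25.2), Vha55 (257 ± 10.6), VhaAC39-1 (254 ± 15.3), Vha36-1 (254 ± 17.2) and Vha44 (234 ± 17.7). Vha55 is the non-catalytic B subunit, Vha36-1 the D subunit of the central rotor and VhaAC39-1 the d subunit that links that rotor to the c ring. A lower group, separate from Vha44 in control, held Vha14-1 (151 ± 25.99), Vha68-2 (145 ± 5.67), Vha100-1 (124 ± 19.3) and VhaAC45 (121 ± 7.14), with each again overlapping the next. VhaM8.9 (96.9 ± 2.14), VhaSFD (87.5 ± 4.41) and Vha100-2 (86.4 ± 14.5) were lower still, and of these only VhaSFD and Vha100-2 overlapped as neighbours.

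Subunit A, which carries the catalytic ATP site, was supplied by Vha68-2, with 95.4 ± 2.56% of the counts of the 3 A genes in control. Vha68-1, Vha68-2 and Vha68-3 lie close together on 2L: Vha68-2 and Vha68-3 are next to each other with 0 genes between them, and 2 genes separate Vha68-3 from Vha68-1. Vha68-3 had 43 counts in all, 0 to 3.03 CPM per library, and did not pass the filter. Vha68-1 passed it with 114 counts in all. How the authors counted reads that match more than 1 paralog is not stated in the labels. The split within this family and within each other family is uncertain to that extent, including the copies with 0 counts.

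Subunit a, the large V0 subunit that forms the proton path with the c ring, was the exception, with 2 copies at similar levels. Vha100-1, known in flies for its role at synapses, stood at 104, 126 and 142 CPM in untreated cells, 131, 122 and 125 in BEAF-32 RNAi, 122, 140.4 and 125 in row RNAi, and 136, 129.8 and 113 in double RNAi. Vha100-2 stood at 69.7, 94.5 and 95.1 CPM in untreated cells, 75.4, 83.2 and 132 in BEAF-32 RNAi, 91.7, 109.7 and 84.2 in row RNAi, and 106, 75.2 and 65.1 in double RNAi. Vha100-1 was the higher of both in 11 libraries and the lower in BEAF-32 RNAi replicate 3. Its share of the counts of the 5 a genes was 58.9 ± 1.59% in control, 57.2 ± 7.73% in BEAF-32 RNAi, 57.6 ± 1.97% in row RNAi and 60.9 ± 4.14% in double RNAi. In BEAF-32 RNAi replicate 3 it was 48.6% (95% Clopper-Pearson interval 44.9% to 52.2%), below the 55.97% to 63.5% of the other 11 libraries. These values are uncertain as far as exons of Vha100-1 overlap those of Alg13 on the other strand, since the labels do not state a strand setting for the counting. The same limit applies to each gene described below as overlapping another on the opposite strand. Vha100-4, next to Vha100-2 on 3R, had 6 counts in all, and Vha100-3 and Vha100-5 had 0.

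The other families were each carried by 1 copy. Vha14-1 held all counts of subunit F, since Vha14-2 had 0. Vha36-1 held 99.88 ± 0.199% of the counts of subunit D over 12 libraries, with 9 counts for Vha36-3 and 0 for Vha36-2. VhaAC39-1 held 99.83 ± 0.361% of those of subunit d, with 12 counts for VhaAC39-2, 6 of them in double RNAi replicate 1. VhaPPA1-1 held 99.5 ± 0.481% of those of subunit c''. VhaPPA1-2, separated from it by 1 gene on 3R, had 50 counts, at most 12 in a library, and its exons overlap CG3817 on the opposite strand. The small membrane subunit e came mainly from VhaM9.7-b, with 95.3 ± 1.59% of its counts in control. VhaM9.7-c had a mean of 16.0 CPM, and VhaM9.7-a and VhaM9.7-d had 0 counts.

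**Figure D2:**
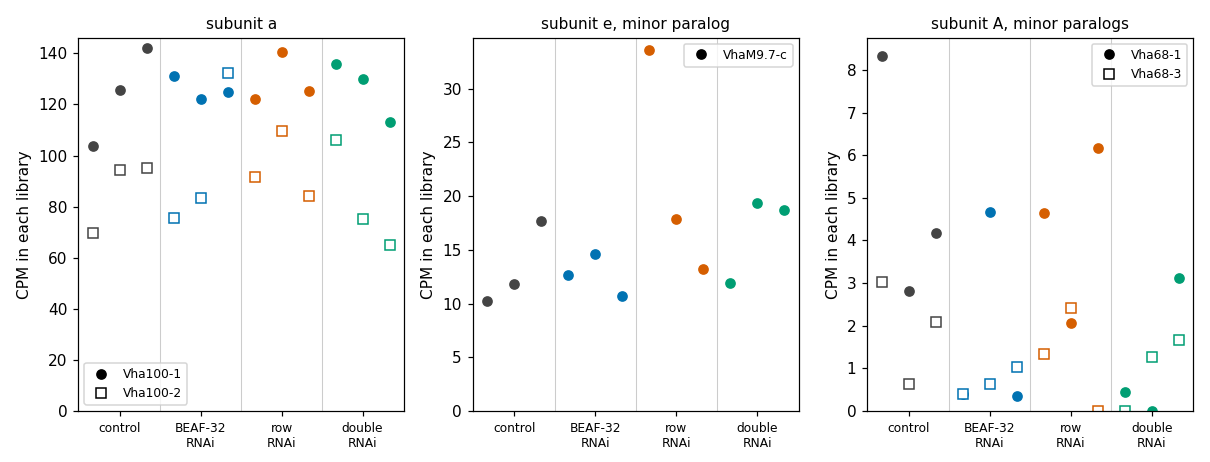
CPM in each library, by group, of Vha100-1 and Vha100-2 (left), VhaM9.7-c (middle) and Vha68-1 and Vha68-3 (right), with separate linear vertical axes that start at 0. Vha100-2 exceeds Vha100-1 in BEAF-32 RNAi replicate 3 alone, VhaM9.7-c is highest in row RNAi replicate 1 (33.6 CPM), and Vha68-1 varies from 0 to 8.34 CPM.

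The 15 leading genes varied little across the 12 libraries. The coefficient of variation of CPM ran from 5.60% (Vha16-1) to 12.5% (Vha14-1) with a median of 8.59%, and over all tested genes the median was 20.5%. Levels differ between these sets, with a median of 236 CPM for the leading genes and 31.6 CPM for all tested genes, and counting error is smaller at high levels. All Vha genes together had 4634, 4756 and 4622 CPM in untreated cells, 4252, 4646 and 4727 in BEAF-32 RNAi, 4682, 4784 and 4539.8 in row RNAi, and 4466, 4654 and 4369.8 in double RNAi. These groups overlapped.

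No V-ATPase gene passed the test in any comparison. In each of BEAF-32 RNAi, row RNAi and double RNAi against control, 0 of 18 tested genes were called, and 0.0271%, 0.19% and 0.271% of all 7377 tested genes were called in those comparisons. DESeq2 and limma-voom also called 0 of the 18 in each. In double RNAi, DESeq2 gave 2 of them, Vha68-1 and VhaM9.7-c, no adjusted p and so could not call them. In the test of any difference between the 4 groups 0 of 18 were called, where 0.38% of all genes were. In the interaction, which asks whether both dsRNAs together differ from the sum of their separate log2 changes, 0 of 18 were called, as were 0% of all genes. An unadjusted p under 0.05 was reached by 1 of 18 in BEAF-32 RNAi (5.19% of all genes), 1 in row RNAi (5.73%), 2 in double RNAi (8.63%), 1 across the 4 groups (7.74%) and 0 in the interaction (4.43%). Groups of 3 that did not overlap with control were seen for 1 of 18 in BEAF-32 RNAi (10.2% of all genes), 4 in row RNAi (11.8%) and 1 in double RNAi (13.1%). The 3 comparisons share the control libraries.

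The leading genes had fold changes against control between 0.791 and 1.08 in BEAF-32 RNAi. These lay between 0.872 and 1.10 in row RNAi, and between 0.829 and 1.17 in double RNAi. The lowest and highest bounds of their 95% intervals were 0.665 and 1.31 in BEAF-32 RNAi, 0.710 and 1.31 in row RNAi, and 0.719 and 1.41 in double RNAi. For Vha16-1 the intervals of the log2 change were -0.18 to 0.08, -0.08 to 0.19 and -0.17 to 0.10 in the same order. A missed threshold does not show that levels were equal, and the interval of each gene gives the changes its libraries leave possible.

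**Figure D3:**
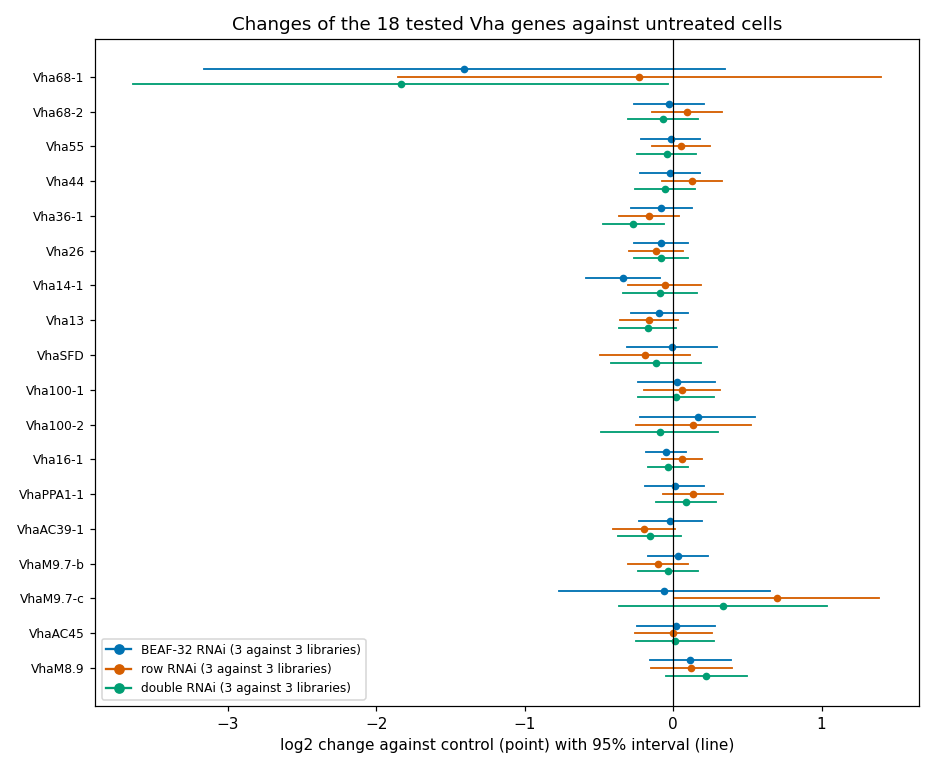
Log2 change against control (points) with 95% intervals (lines) of the 18 tested Vha genes in BEAF-32 RNAi, row RNAi and double RNAi (3 against 3 libraries each). The 15 leading genes lie between -0.34 and 0.22 in all 3 comparisons, and the intervals are widest for Vha68-1 and VhaM9.7-c.

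Split by sector, which was not planned beforehand, the 9 tested V1 genes lay mostly below control, none of them past the test. These genes were measured in the same libraries, so their directions are not independent of each other. All 9 had log2 changes below 0 in BEAF-32 RNAi (median -0.08) and in double RNAi (median -0.09), and 6 of 9 in row RNAi (median -0.11). Of all tested genes 50.1%, 50.1% and 51% lay below 0 in these comparisons, with medians of -0.00 in each. Of the 7 V0 genes 3, 4 and 2 lay below 0 in the same order, with medians of 0.01, -0.03 and 0.06 for BEAF-32 RNAi, double RNAi and row RNAi. The counts of V1 genes below 0 in these comparisons were the same with DESeq2's size factors and with library totals. Without BEAF-32 RNAi replicate 1, in which 3 of 18 genes lay above their control mean, 5 of 9 V1 genes lay below 0 in BEAF-32 RNAi. Without control replicate 1 the counts below 0 were 8 in BEAF-32 RNAi, 4 in row RNAi and 7 in double RNAi, of 9 each. In BEAF-32 RNAi the count was 7 without control replicate 2 and 6 without control replicate 3. Leaving out either of these kept 6 in row RNAi and 9 in double RNAi.

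Summed V1 genes had 1972, 1896 and 1816 CPM in untreated cells, 1701, 1807 and 1865 in BEAF-32 RNAi, 1840.2, 1850.3 and 1777 in row RNAi, and 1740.5, 1782 and 1719 in double RNAi. The 3 double RNAi libraries were below all control libraries, and the other groups overlapped control. V0 genes summed to 2437 to 2652 CPM in control, 2344 to 2636 in BEAF-32 RNAi, 2537 to 2706 in row RNAi and 2439 to 2604 in double RNAi, all overlapping. The V1 share of V1 and V0 counts was 44.7% in control replicate 1 and 40.6% to 42.0% in the other 11 libraries. Control replicate 1 also had the highest V1 sum of all libraries and, of the control libraries, the lowest V0 sum.

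**Figure D4:**
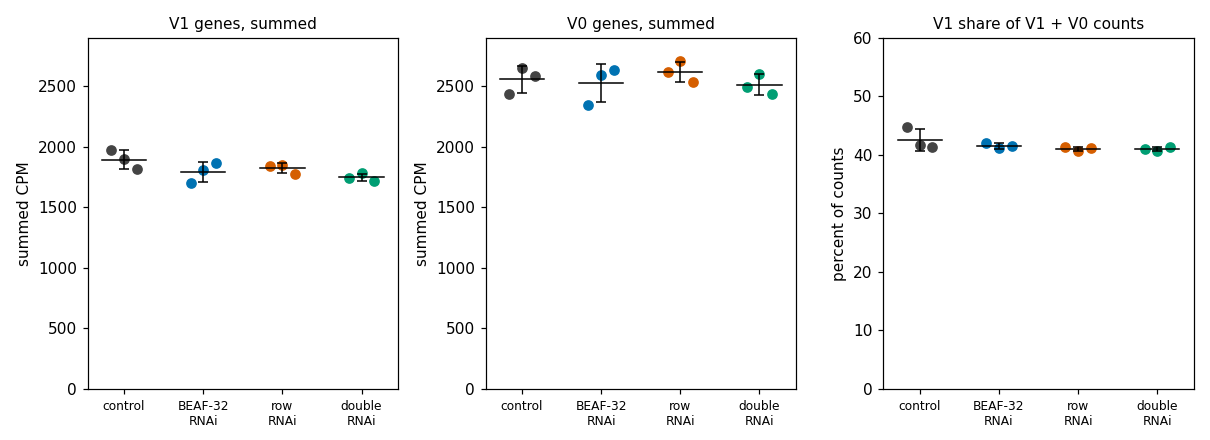
Summed CPM of V1 genes (left) and V0 genes (middle) and the V1 share of their joint counts in percent (right), with 1 point per library, the group mean (horizontal line) and SD (error bar, n = 3). The V1 sum lies at 1719 to 1782 CPM in double RNAi and at 1816 to 1972 in control, and the V1 share is highest in control replicate 1 (44.7%).

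In BEAF-32 RNAi the smallest p belonged to Vha14-1, the F subunit of the central rotor stalk. It stood at 181, 131 and 142 CPM in untreated cells, 126, 109.7 and 123 in BEAF-32 RNAi, 139, 146 and 150.5 in row RNAi, and 148, 139 and 139.5 in double RNAi. BEAF-32 RNAi libraries were below all others. The log2 change against control was -0.34 (SE 0.12, 95% interval -0.59 to -0.09, unadjusted p = 0.00862, adjusted p = 0.848). Without control replicate 1, the highest library, the change was -0.19. In double RNAi, which also received BEAF-32 dsRNA, the log2 change of Vha14-1 was -0.09. BEAF-32 itself had a log2 change of -0.93 there and of -1.44 in BEAF-32 RNAi. The interaction of Vha14-1 was 0.31 (SE 0.18, adjusted p = 0.999), or 0.16 without control replicate 1. Vha14-1 also had the smallest p of the family across the 4 groups (unadjusted p = 0.0475, adjusted p = 0.641).

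The other 5 named genes in BEAF-32 RNAi had unadjusted p of 0.114 or more. Vha68-1 had a log2 change of -1.41 (SE 0.88) on 1 to 22 counts per library, which became -3.63 without BEAF-32 RNAi replicate 2 and -0.87 without control replicate 1. Vha13 had a log2 change of -0.09 (SE 0.10). Above 0 lay Vha100-2 (0.17, SE 0.19), VhaM8.9 (0.11, SE 0.14) and VhaM9.7-b (0.03, SE 0.10). The value of Vha100-2 was -0.13 without BEAF-32 RNAi replicate 3, the library in which it exceeded Vha100-1, and that of VhaM8.9 was 0.02 without BEAF-32 RNAi replicate 2.

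In row RNAi the smallest p belonged to VhaM9.7-c, the minor e copy. It stood at 10.2, 11.8 and 17.7 CPM in untreated cells, 12.7, 14.7 and 10.7 in BEAF-32 RNAi, 33.6, 17.9 and 13.3 in row RNAi, and 11.9, 19.3 and 18.7 in double RNAi. The groups overlapped, and row RNAi replicate 1 was far above the rest. The log2 change was 0.70 (SE 0.34, 95% interval 0.01 to 1.38, unadjusted p = 0.0467, adjusted p = 0.850) and 0.23 without that library. VhaM9.7-c overlaps Teh2 on the same strand and CG18675 on the opposite strand, with no shared exon bases.

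VhaAC39-1, the d subunit on the X, stood at 242, 271 and 249 CPM in control and 208, 229 and 228 in row RNAi, with no overlap. Its log2 change was -0.20 (SE 0.11, unadjusted p = 0.0671, adjusted p = 0.868). VhaSFD, the H subunit that regulates ATP hydrolysis, stood at 84.9, 85.1 and 92.6 CPM in control and 83.1, 65.4 and 81.4 in row RNAi, again with no overlap and a log2 change of -0.19 (SE 0.15). The C subunit gene Vha44 and VhaM8.9 had groups in which row RNAi lay above control, with log2 changes of 0.13 (SE 0.10) and 0.12 (SE 0.14). Exons of Vha44 overlap Hmgs on the opposite strand. The remaining named genes were VhaPPA1-1 (0.13, SE 0.10), Vha13 (-0.16, SE 0.10) and Vha36-1 (-0.16, SE 0.10), with overlapping groups. Without control replicate 1 the log2 changes of Vha44 and VhaPPA1-1 were 0.07 and 0.06.

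In double RNAi the smallest p belonged to Vha36-1, the D subunit of the rotor shaft. It stood at 269, 256 and 235 CPM in untreated cells, 218, 246 and 255 in BEAF-32 RNAi, 209.7, 237 and 233 in row RNAi, and 223, 216 and 193 in double RNAi. Double RNAi libraries lay below all control libraries and overlapped those of the other dsRNA groups. The log2 change was -0.27 (SE 0.10, 95% interval -0.48 to -0.06, unadjusted p = 0.0108, adjusted p = 0.427), and it ran from -0.32 to -0.21 when 1 library was left out. Changes in BEAF-32 RNAi and row RNAi were -0.08 and -0.16, and the interaction was -0.03 (SE 0.14).

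Vha68-1 had the largest change in size of the family and the least certain one. Its counts were 22, 9 and 12 in control, 1, 15 and 1 in BEAF-32 RNAi, 14, 6 and 20 in row RNAi, and 1, 0 and 13 in double RNAi. In both groups given BEAF-32 dsRNA, 1 library was near the control level and the other 2 held 0 or 1 counts, so the groups overlapped. The log2 change in double RNAi was -1.84 (SE 0.90, 95% interval -3.64 to -0.03, unadjusted p = 0.0462, adjusted p = 0.566). It was -4.30 without double RNAi replicate 3, the deepest library, and -1.32 without control replicate 1. Vha68-2, the copy that carries subunit A, had a log2 change of -0.07 (SE 0.12) in the same comparison.

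VhaM8.9 had the smallest p above 0 in double RNAi, with 99.3, 95.1 and 96.4 CPM in control and 121, 124 and 95.96 in double RNAi (log2 change 0.22, SE 0.14, adjusted p = 0.672). The groups overlapped through double RNAi replicate 3. Vha13, the G subunit, had a log2 change of -0.17 (SE 0.10, adjusted p = 0.644). The log2 changes of VhaM9.7-c (0.34, SE 0.35) and VhaPPA1-1 (0.09, SE 0.10) moved with single libraries. VhaM9.7-c had 0.19 without control replicate 1 and 0.59 without control replicate 3, and VhaPPA1-1 had 0.01 and 0.17. In the interaction the named genes besides Vha14-1 were Vha26 (0.11, SE 0.13) and Vha13 (0.08, SE 0.14) above 0, and Vha100-2 (-0.39, SE 0.27), Vha44 (-0.16, SE 0.14) and Vha68-2 (-0.13, SE 0.17) below 0. Each of these also moved with single libraries. Vha100-2 was at -0.10 without BEAF-32 RNAi replicate 3, Vha44 at -0.07 and Vha68-2 at -0.07 without BEAF-32 RNAi replicate 2, and Vha26 at 0.02 without control replicate 1.

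**Figure D5:**
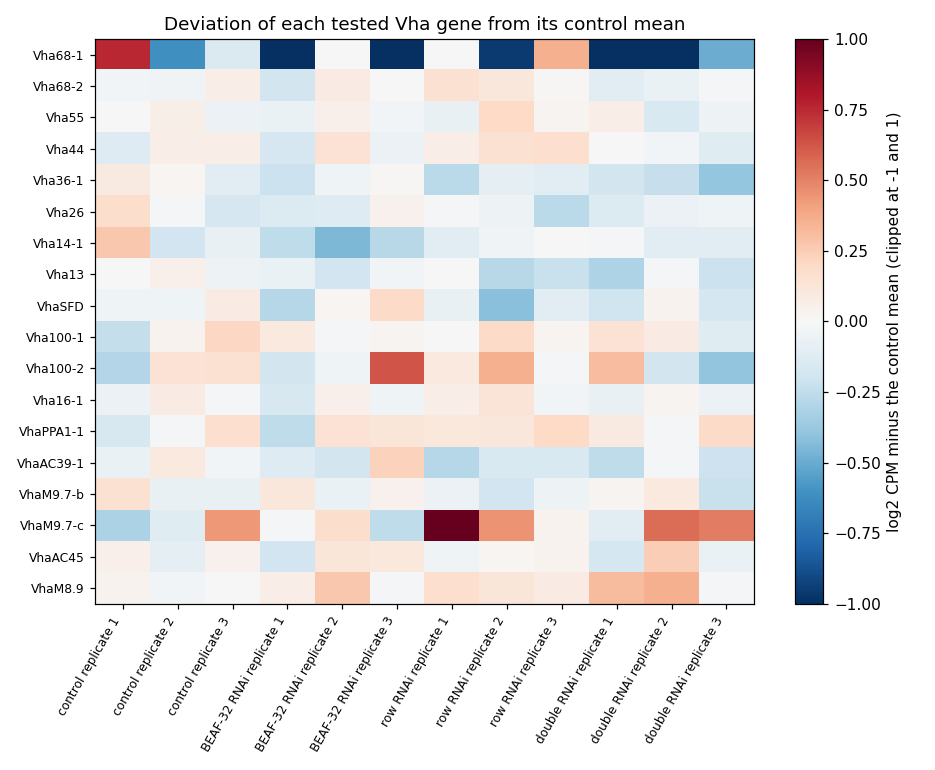
Log2 CPM of each of the 18 tested Vha genes (rows) in each library (columns) minus the mean of the 3 control libraries, with a prior count of 2 and colour clipped at -1 and 1. Deep colour is seen mainly for Vha68-1, VhaM9.7-c and Vha100-2, and the median over the 18 genes is lowest in BEAF-32 RNAi replicate 1 (-0.17).

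Taken as a list, the 18 tested genes had a median log2 change of -0.02 in BEAF-32 RNAi, 0.03 in row RNAi and -0.06 in double RNAi, with 12, 8 and 13 genes below 0. The median over the 18 genes per library, relative to the control mean, was -0.17, 0.01 and 0.01 in BEAF-32 RNAi, -0.00, 0.06 and 0.01 in row RNAi, and -0.09, -0.01 and -0.11 in double RNAi. In control it was -0.01 in each library. Those control values lie near 0 by construction, since the control mean was taken over the same libraries.

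Genes that act with the V-ATPase were read from a list. It held Mitf, the fly MITF/TFEB factor that controls V-ATPase and lysosome genes, and assembly and accessory factors of the pump. It also held the lysosomal TORC1 arm, lysosomal enzymes and membrane proteins, and the fusion machinery. The table held 51 of the listed genes, and 43 were tested. In BEAF-32 RNAi and row RNAi 0 of 43 passed edgeR's test (0.0271% and 0.19% of all tested genes did). In double RNAi 1 of 43 fell (0.271% of all tested genes were called), Hexo1, which encodes a lysosomal hexosaminidase. An unadjusted p under 0.05 was reached by 2, 5 and 4 of 43 in BEAF-32 RNAi, row RNAi and double RNAi, and by 5.19%, 5.73% and 8.63% of all tested genes. The list median of the log2 change was -0.04, -0.04 and 0.03 in BEAF-32 RNAi, row RNAi and double RNAi. Mitf itself had a mean of 58.3 CPM and log2 changes of -0.07, -0.21 and 0.09 (SE 0.18 each). Of the 4 assembly and accessory factor genes, Rbcn-3A and Rbcn-3B had changes of -0.06 to 0.10 in these comparisons. In the same order rogdi had -0.23, -0.15 and 0.11 (SE 0.22 each), and mtd -0.10, -0.17 and -0.08 (SE 0.18 each).

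Hexo1 averaged 30.6 ± 2.47 CPM in control (SD, n = 3), 27.3 ± 5.92 in BEAF-32 RNAi, 19.5 ± 1.70 in row RNAi and 13.4 ± 4.87 in double RNAi. Its log2 change was -1.20 in double RNAi (SE 0.29, adjusted p = 0.0399), -0.65 in row RNAi (SE 0.28, adjusted p = 0.740) and -0.16 in BEAF-32 RNAi (SE 0.27). The call was lost with library totals (adjusted p = 0.0611) and when control replicate 1, control replicate 2, control replicate 3, double RNAi replicate 1 or double RNAi replicate 3 was left out (highest adjusted p = 0.2005). DESeq2 gave Hexo1 no adjusted p in double RNAi and so made no call there. Exons of Hexo1 overlap CG15012 on the opposite strand. The aspartic protease gene cathD (-0.22, SE 0.09) and the second hexosaminidase gene Hexo2 (-0.24, SE 0.10) had adjusted p = 0.4997 each in double RNAi. Above 0 in double RNAi lay Vps11 (0.46, SE 0.23) of the fusion machinery, REPTOR (0.33, SE 0.17), a transcription factor repressed by TORC1, and spin (0.28, SE 0.15), a lysosomal membrane protein gene, with adjusted p of 0.579 to 0.632. In row RNAi the palmitoyl-protein thioesterase gene Ppt1 (0.38, SE 0.15), the cathepsin L gene Cp1 (0.16, SE 0.07) and Vps39 (0.49, SE 0.23) lay above 0, and the lysosomal mannosidase gene LManI (-0.70, SE 0.31) and the Rag GTPase gene RagC-D (-0.36, SE 0.22) below, with adjusted p of 0.703 or more. In BEAF-32 RNAi the TORC1 kinase gene Tor (0.61, SE 0.27), Ppt1 (0.25, SE 0.15) and Hexo2 (0.16, SE 0.10) lay above 0, and Cp1 (-0.17, SE 0.07), LManI (-0.37, SE 0.31) and rogdi (-0.23, SE 0.22) below, with adjusted p of 0.860 or more.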

How the data were processed

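Per the labels' protocols, 3' RNA-seq libraries were made from total RNA with barcoded oligo-dT primers that carry a molecular identifier. STAR and the dm3 build are named in the submitters' processing notes. The annotation, the counting step, its strand setting and the use of identifiers are not stated in the labels. The deposited table holds unnormalised counts, with 1 column for each library, matched to samples by title. The 7377 genes that passed filterByExpr (minimum count 10) were fitted over all 12 libraries in R 4.3.3 with edgeR 4.0.16 (TMM factors 0.962 to 1.05, robust quasi-likelihood, no block, 8 residual degrees of freedom), with a threshold of 0.05 on adjusted p. SE is the absolute log2 change over the square root of F, and 95% intervals use the t distribution. Overlaps, gene order and transcript lengths are from BDGP6.54, another build than dm3, so no coordinates are given.

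The members, the lists and the tests were chosen with earlier results of these data known. Named were the leading gene of each subunit and, per comparison, the 3 tested members with the smallest p in each direction, likewise for the related list (against control). VhaSFD and VhaM8.9 in row RNAi, and the values of Mitf, Rbcn-3A, Rbcn-3B and mtd, were added after their values were seen. So were those of rogdi in row RNAi and double RNAi. The split into V1 and V0 genes, with its counts, sums and shares, was not planned beforehand. Alternatives were DESeq2's size factors, library totals, no filter, DESeq2 1.42.0, limma-voom (limma 3.58.1), a replicate block, leaving out each library, and 0.1 as threshold. The test was also run on data simulated with the spread estimated from these libraries. Such data cannot show how well it suits the real libraries.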

Additional observations from a re-analysis of the deposited data

How the results depend on the processing

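The count of 0 called V-ATPase genes was the same in all 5 comparisons under DESeq2's size factors, library totals, no filter, DESeq2, limma-voom, a threshold of 0.1, the replicate block, and without any 1 of the 12 libraries. In DESeq2 2 of the 18 genes, Vha68-1 and VhaM9.7-c, had no adjusted p in double RNAi. No pairing by replicate number was detected. After group means were removed, 18 same-numbered pairs correlated at -0.12 to 0.06 and different-numbered pairs at -0.11 to 0.09. Of 12 libraries 5 matched their own number best. The labels do not state what the numbers mark, so pairing is not excluded. The replicate block changed no V-ATPase call. Without control replicate 1, 0 of the 18 V-ATPase genes had an unadjusted p under 0.05 against control in any of the 3 comparisons. Of 406 alternative values of the 24 named changes 401 kept direction and side of the threshold. Those that reversed were VhaM9.7-b in BEAF-32 RNAi (below 0 without control replicate 2, control replicate 3 or BEAF-32 RNAi replicate 1, lowest -0.00951, and up to 0.109), Vha100-2 in BEAF-32 RNAi (-0.13 without BEAF-32 RNAi replicate 3, and up to 0.315) and Vha13 in the interaction (-0.00272 without double RNAi replicate 2, and up to 0.169). The cause was not tested. The median change in the interaction was -0.04, and ran from -0.0972 to 0.0178 when 1 library was left out. With library totals it was 0.02, with 7 of 18 genes below 0 in place of 12. Medians against control also crossed 0 when 1 library was left out, to 0.01 in BEAF-32 RNAi without its replicate 1 and to -0.00 in row RNAi without its replicate 2. Leading shares that moved by more than the control SD were those of Vha36-1 over 12 libraries (99.88%, from 100% in control) and, per transcript length (chosen after seeing the data), VhaPPA1-1 (99.3%) and VhaM9.7-b (93.4%). Across all genes the 4-group test called 28, against 75 with no filter, 51 in DESeq2 and 53 at the threshold of 0.1, and 18 without row RNAi replicate 2. Leaving out 1 library gave 1 to 4, 4 to 19 and 9 to 29 calls in BEAF-32 RNAi, row RNAi and double RNAi, where all libraries gave 2, 14 and 20. Depth limits the genes under 1 CPM, for which a library of this size cannot separate low expression from none.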
